A study of Arabidopsis with 6 samples.

Results

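The type II phosphatidylinositol 4-kinases of the gamma type were followed in the aerial parts of Arabidopsis thaliana plants that lack normal function of APUM23. The group was chosen as a list of 7 loci of this kinase family, and it was selected on the measured log2 fold change of AT5G24240, already known to be strongly raised on these arrays. Of the 7, 4 have a probe set that the probe table pairs with that gene alone (AT5G24240, AT1G13640, AT1G26270 and AT1G64460), out of 13286 genes with such a probe set in the series. Each of the 4 has 1 such probe set, so no choice between probe sets was needed. The other 3 loci, AT2G46500 (PI4K GAMMA 4), AT2G40850 (PI4K GAMMA 1) and AT2G03890 (PI4K GAMMA 7), are not analysed here.

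The mutant group was apum23, with 3 arrays, and the comparison group was wild type of the cultivar Col-3, also with 3 arrays. The mutant samples carry the same cultivar label. All plants grew on soil for 21 days at 22 °C with 8 h of light and 16 h of dark, and RNA was taken from the aerial parts. The series design names the mutant apum23-1, whereas the descriptions of apum23 replicates 2 and 3 read apum23-2 and apum23-3, and the labels do not settle if those names stand for further alleles. APUM23 is a nucleolar RNA-binding protein of the Pumilio family with a role in ribosomal RNA processing. Its own transcript level is not analysed here, so it gives no check of the genotypes.

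Phosphatidylinositol 4-kinases add a phosphate to the inositol ring of the membrane lipid phosphatidylinositol and so make phosphatidylinositol 4-phosphate. That lipid marks membranes of the secretory pathway and is the substrate of the kinases that make phosphatidylinositol 4,5-bisphosphate, which phospholipase C can cleave. Plants have a gamma type of the type II class whose proteins carry ubiquitin-like domains ahead of the kinase domain. In Arabidopsis the proteins PI4K GAMMA 4 and PI4K GAMMA 7 are also named ubiquitin-like domain kinases, since they were found to phosphorylate proteins, including themselves.

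Values are log2 probe set intensities, and a change of a gene is read from the same gene on other arrays. Bright and dim place a probe set on the intensity scale and do not rank genes by amount of transcript. Where 1 gene is subtracted from another within an array, only the change of that difference between genotypes is read. Over all tested probe sets, Pearson's r was 0.991 to 0.996 within a genotype and 0.982 to 0.987 between genotypes. The arrays did not share 1 scale. Their medians were 5.70 to 6.10 in apum23 and 5.34 to 5.94 in wild type, and wild-type replicate 1, with the lowest median, also had low spiked-in hybridization controls (mean log2 intensity 5.36, against 9.42 to 9.74 on the other arrays). The kinases are therefore described on the deposited values and after quantile normalization, and the other named genes on the deposited values and, where the call or the overlap of the groups changes, after quantile normalization as well. Leaf genes were bright on every array, as with RCA (rubisco activase) at 13.56 to 13.85 in apum23 and 13.63 to 13.83 in wild type. The 2 measured root hair markers, EXPA7 and EXPA18, lay at 3.43 to 4.36 in apum23 and 3.60 to 4.15 in wild type, and the 2 measured pollen markers at 2.65 to 3.25 in apum23 and 2.87 to 3.27 in wild type. Of 32 listed tissue markers 7 were measured, and the flower and seed lists had no measured marker. On the deposited values 0 of the 7 passed the limma test (0 also at an unadjusted p under 0.05). After quantile normalization 1 of them did, the leaf gene PRK of the Calvin cycle, which was lower in apum23 (log2 fold change -0.44). PRK also passed with arrays centred on their medians (-0.58, limma adjusted p = 0.016). The shares of all probe sets called were 6.69% on the deposited values and 19.7% after quantile normalization. The groups of PRK and of EXPA7 (-0.12, limma adjusted p = 0.452) overlapped on the deposited values and did not after quantile normalization. Groups did not overlap for 14.2% of all probe sets on the deposited values and for 34.3% after quantile normalization. The 3′ minus 5′ differences of actin, GAPDH and ubiquitin, a sign of RNA quality, were tested for 2 probe set designs each, and their exact permutation p-values were 0.1 to 0.9 (two-sided, n = 3 each), or 0.3 to 0.9 after adjustment over the 6 tests, where 0.1 is the smallest that 3 against 3 can give. For actin in the second design the difference was 1.42 ± 0.08 in apum23 and 1.59 ± 0.07 in wild type (SD, n = 3 each). For ubiquitin in that design it was 0.11 ± 0.02 in apum23 and 0.19 ± 0.07 in wild type (SD, n = 3 each). Both reached the exact permutation p of 0.1, and the remaining controls had 0.5 to 0.9. The part of RNA quality in the results was not tested.

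AT5G24240 stood far apart from the other measured kinases in its change. Its log2 intensity was 7.37, 7.08 and 7.43 on the apum23 arrays, against 3.79, 4.20 and 3.41 on the wild-type arrays. Every apum23 array lay above every wild-type array, and the gap between the closest pair was wider than the range within either group. The mean was 7.29 ± 0.18 in apum23 and 3.80 ± 0.39 in wild type (SD, n = 3 each), a log2 fold change of 3.49 with a standard error of 0.22, or 11.3-fold. This gene was put on the list for this rise, so the values are a description and no p-value is given. In whole aerial parts, a higher signal per cell and a larger share of cells with the transcript cannot be told apart. In wild type its signal was near the lower quartile of all probe sets, which was 3.41, 3.69 and 3.50 on wild-type replicates 1, 2 and 3. Wild-type replicate 3 lay below its array's quartile. Close to background an intensity ratio has an uncertain size, so the fold should be read as approximate. After quantile normalization the difference was 3.34, or 10.1-fold, with values of 7.47, 7.07 and 7.17 in apum23 and 4.05, 4.13 and 3.52 in wild type. Of the 22746 probe sets tested, 8 had a larger rise than AT5G24240 on the deposited values, and also 8 after quantile normalization. When the mutant was represented by apum23 replicate 1 alone, whose description names the allele of the series design, the log2 fold change was 3.57.

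**Figure D1:**
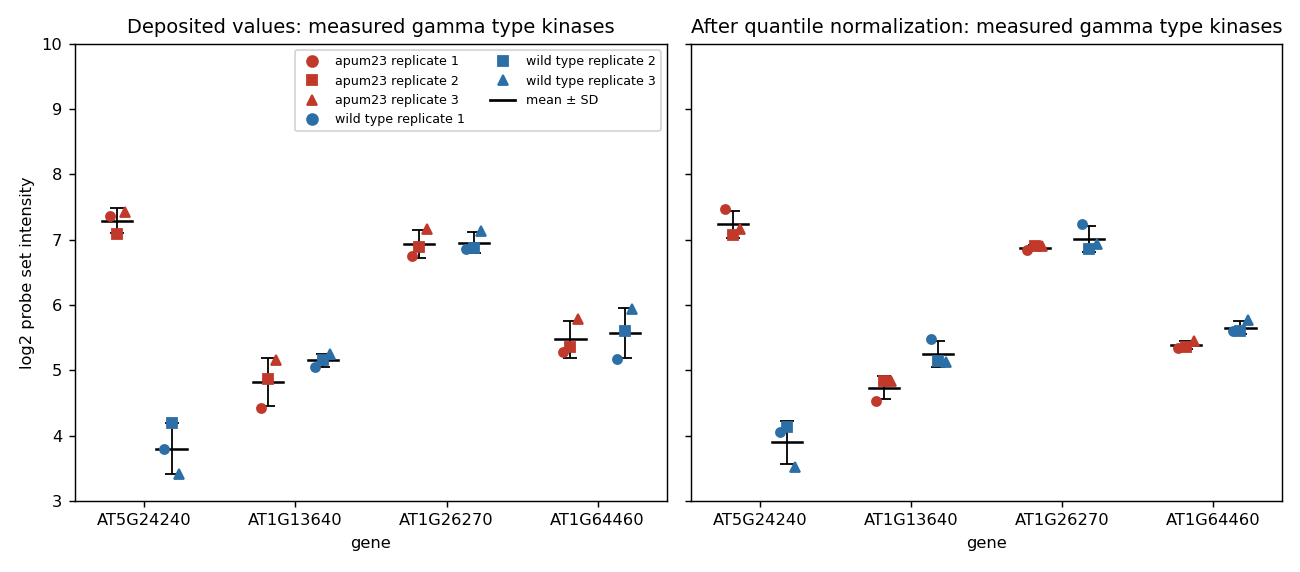
Log2 probe set intensity (y axis) of the 4 measured gamma type kinases (x axis) on each array, as deposited (left panel) and after quantile normalization (right panel), with apum23 in red and wild type in blue. Points are single arrays and bars the mean ± SD of 3. AT5G24240 averages 7.29 in apum23 and 3.80 in wild type on the deposited values, whereas the groups of the other 3 genes overlap there.

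None of the other 3 measured kinases was called higher on either scale. AT1G13640, also of the gamma type, had log2 intensities of 4.43, 4.87 and 5.15 in apum23, against 5.05, 5.15 and 5.26 in wild type. The lowest signals were those of apum23 replicates 1 and 2, but apum23 replicate 3 lay within the wild-type range, so the groups overlapped. The log2 fold change was -0.34 with a 95% interval of -0.78 to 0.10 (limma adjusted p = 0.575 over all probe sets). After quantile normalization its values were 4.53, 4.84 and 4.83 in apum23, against 5.47, 5.14 and 5.13 in wild type. On that scale the groups no longer overlapped and the gene passed the test, with a log2 fold change of -0.51 and a 95% interval of -0.79 to -0.23 (limma adjusted p = 0.0152), a level 0.701 times that of wild type. With arrays centred on their medians the difference was about as large, at -0.51, and missed the threshold (limma adjusted p = 0.0595), as did quantile normalization without wild-type replicate 1 (-0.41, limma adjusted p = 0.0507). Without apum23 replicate 1 the deposited difference was -0.14, so the size of this difference rests partly on that array.

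AT1G26270 was the member with the smallest difference. Its log2 intensity was 6.75, 6.90 and 7.17 in apum23, against 6.85, 6.88 and 7.14 in wild type. The 2 sets of values covered nearly the same range. The log2 fold change was -0.02 with a 95% interval of -0.46 to 0.42 (limma adjusted p = 0.995), and after quantile normalization it was -0.13 with a 95% interval of -0.38 to 0.12 (limma adjusted p = 0.489). The 2 intervals differ in width with the scaling, and neither is adjusted for the number of probe sets. A change of either sign within the wider one, -0.46 to 0.42 on the log2 scale, remains possible.

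AT1G64460 had log2 intensities of 5.27, 5.35 and 5.79 in apum23, against 5.18, 5.60 and 5.94 in wild type. The groups overlapped, and within each group replicate 1 was the dimmest and replicate 3 the brightest, which is also the order of the array medians. The log2 fold change was -0.10 with a 95% interval of -0.54 to 0.34 (limma adjusted p = 0.977). After quantile normalization the spread within groups shrank, to 5.38 ± 0.06 in apum23 and 5.65 ± 0.10 in wild type (SD, n = 3 each), and the groups did not overlap. The difference on that scale was -0.27 with a 95% interval of -0.49 to -0.06, an interval not adjusted for the number of probe sets, and it did not pass the test (limma adjusted p = 0.076). Groups that do not overlap are common after quantile normalization, where 34.3% of all probe sets have them, against 14.2% on the deposited values.

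In all, 1 of the 4 measured kinases, AT5G24240, was called on the deposited values, where 6.69% of all probe sets were called and 5.31% were called higher. After quantile normalization 2 of the 4 were called, AT5G24240 higher and AT1G13640 lower, where 19.7% of all probe sets were called in either direction. Over all probe sets 1208 were higher and 314 lower on the deposited values, 2205 higher and 2276 lower after quantile normalization, and 1196 higher and 1801 lower with arrays centred on their medians. The list was built around a known rise, so nothing is read from these counts. The median log2 fold change of the 4 was -0.06, against 0.08 for all tested probe sets, and after quantile normalization -0.20, against -0.02.

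**Figure D2:**
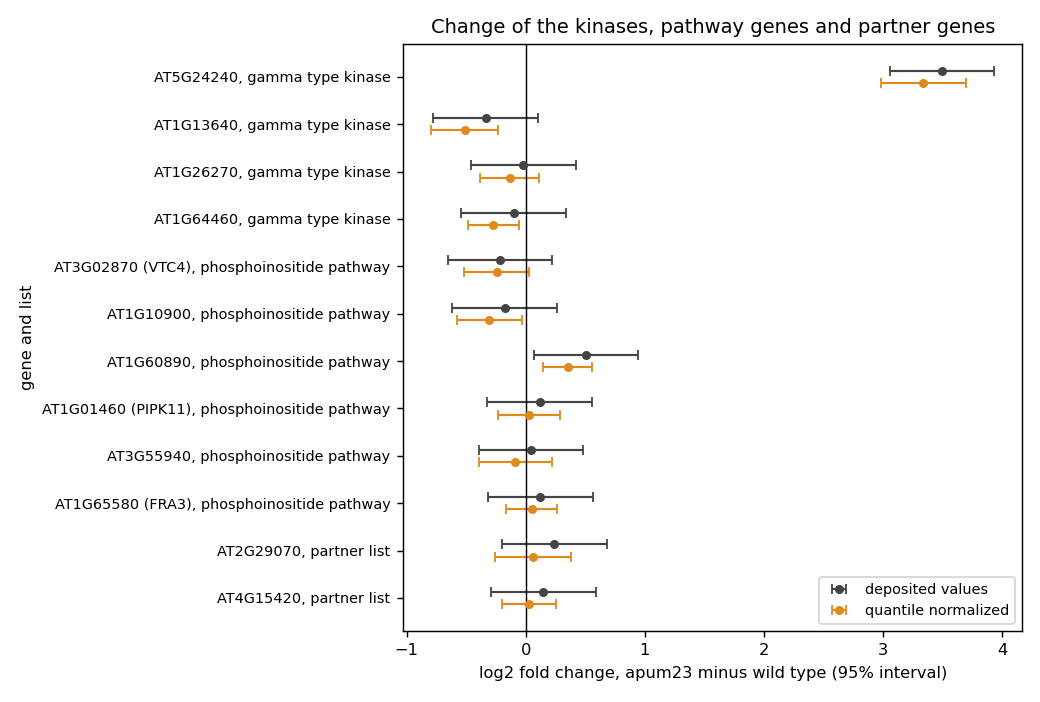
Log2 fold change, apum23 minus wild type (x axis), with its 95% interval for each measured gamma type kinase, phosphoinositide pathway gene and partner gene (y axis), on deposited (grey) and quantile-normalized values (orange). AT5G24240 lies at 3.49 and 3.34, and all the other genes shown lie between -0.51 and 0.51.

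A log2 shift shared by all probe sets of an array cancels in a difference between 2 of them. A shift that varies with intensity does not cancel. Such differences were compared between the genotypes on the deposited values for the 3 kinases other than AT5G24240. AT1G13640 minus AT1G26270 was -2.33, -2.03 and -2.01 in apum23, against -1.80, -1.73 and -1.88 in wild type. All 3 apum23 arrays lay below all 3 wild-type arrays. The mean changed by -0.32 (exact permutation p = 0.1, two-sided, n = 3 each, and 0.3 adjusted over the 3 pairs), and 0.1 is the smallest p this design allows, so the test cannot pass. Neither AT1G13640 minus AT1G64460, which changed by -0.24, nor AT1G26270 minus AT1G64460, which changed by 0.08, separated the genotypes (exact permutation p = 0.4 and 0.7, two-sided, n = 3 each). AT5G24240 minus AT1G26270, given as a description only, was 0.62, 0.19 and 0.26 in apum23, against -3.06, -2.68 and -3.73 in wild type, a change of 3.51. The change of AT5G24240 alone on the deposited scale was 3.49. After quantile normalization AT1G13640 minus AT1G26270 changed by -0.38 and AT5G24240 minus AT1G26270 by 3.47. On that scale AT1G13640 minus AT1G64460 changed by -0.24 and AT1G26270 minus AT1G64460 by 0.14.

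**Figure D3:**
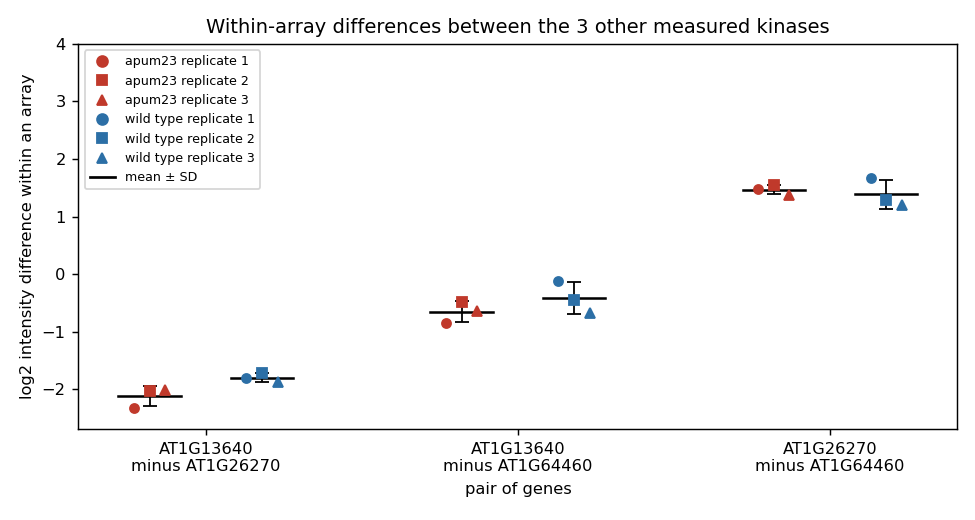
Within-array difference in log2 intensity (y axis) for the 3 pairs of kinases other than AT5G24240 (x axis), with apum23 in red, wild type in blue, single arrays as points and the mean ± SD of 3 as bars. The groups are apart for AT1G13640 minus AT1G26270 (means -2.12 in apum23 and -1.81 in wild type) and overlap for the other pairs.

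The wider phosphoinositide pathway was thinly covered. Of 57 listed genes for inositol supply, phosphatidylinositol kinases, phosphatases, phospholipases C and inositol phosphate kinases, 6 were measured. On the deposited values 0 of the 6 were called by limma, and 1, AT1G60890, had an unadjusted p under 0.05, with 6.69% of all probe sets called. Their log2 fold changes ran from -0.21 to 0.51 with a median of 0.08, against 0.08 for all probe sets. After quantile normalization 1 of the 6 was higher and 0 lower, with 19.7% of all probe sets called. The type III phosphatidylinositol 4-kinases, the phosphatidylinositol 3-kinase, the listed kinases of its product, the SAC phosphatases and the inositol phosphate kinases had no measured member. The counts of calls therefore do not cover these classes. Measured means that the probe table pairs a probe set with that gene alone, so the other listed genes may still have probe sets on the array.

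AT1G60890, listed among the phosphatidylinositol 4-phosphate 5-kinases, which make phosphatidylinositol 4,5-bisphosphate from the product of the 4-kinases, had the largest difference of the pathway. Its log2 intensity was 6.37, 6.45 and 6.68 in apum23, against 5.57, 6.09 and 6.31 in wild type. The groups did not overlap, although the dimmest apum23 array exceeded the brightest wild-type array by little. The log2 fold change was 0.51 with a 95% interval of 0.07 to 0.95 and did not pass the test (limma adjusted p = 0.206). Without wild-type replicate 1, the dimmest array for this gene, it was 0.30 (limma adjusted p = 0.589). After quantile normalization it was 0.36, with 6.43 ± 0.04 in apum23 and 6.07 ± 0.07 in wild type (SD, n = 3 each), and it passed (limma adjusted p = 0.0201). It also passed on the deposited values with the replicate number as a block (limma adjusted p = 0.0465). With arrays centred on their medians it was 0.34 and missed the threshold (limma adjusted p = 0.0917). Quantile normalization without wild-type replicate 1 gave 0.31, which missed it as well (limma adjusted p = 0.065). The other 2 measured genes of that list were AT1G10900 at -0.18 and PIPK11 at 0.12 (limma adjusted p = 0.911 and 0.969), of which PIPK11 was dim on every array, at 3.22 to 3.29 in apum23 and 3.09 to 3.21 in wild type. The groups of PIPK11 did not overlap there, whereas after quantile normalization they did (log2 fold change 0.03). VTC4, an inositol monophosphatase that frees inositol for lipid synthesis and also serves ascorbate synthesis, was at -0.21 (limma adjusted p = 0.847). It averaged 9.25 ± 0.06 in apum23 and 9.47 ± 0.51 in wild type (SD, n = 3 each), with wild-type replicate 1 the dimmest of all 6 arrays at 8.90. It passed the test only after quantile normalization without wild-type replicate 1 (-0.37, limma adjusted p = 0.0477). AT3G55940, listed as a phospholipase C specific for phosphoinositides, was at 0.05, and FRA3, an inositol polyphosphate 5-phosphatase known from fibre cell walls, at 0.12 (limma adjusted p = 0.995 and 0.963).

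A list of 5 genes was made for proteins reported to bind or be phosphorylated by gamma type kinases. It took in the UFD1 family as a group, which works in the handling of ubiquitinated proteins. The 2 measured genes are both of that family, and they may be relatives of a reported partner and not the partner itself. AT2G29070 had log2 intensities of 5.53, 5.21 and 5.79 in apum23, against 5.20, 5.09 and 5.53 in wild type. AT4G15420 had 7.11, 7.10 and 7.40 in apum23, against 6.88, 7.01 and 7.27 in wild type. Both pairs of groups overlapped, and the log2 fold changes of 0.24 and 0.15 did not pass the test (limma adjusted p = 0.794 and 0.940, and 0 of the 2 at an unadjusted p under 0.05). After quantile normalization the log2 fold changes were 0.06 and 0.03, and neither gene was called. The shares of all probe sets called were 6.69% on the deposited values and 19.7% after quantile normalization. With 2 genes nothing is read from the lack of calls.

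The place of the kinases in the genome was not used to choose them, so their nearest measured protein-coding neighbours in the RefSeq gene order of assembly TAIR10.1 were examined, 3 on each side among the 10 nearest. No measured neighbour of AT5G24240 was called. AT5G24230, the adjacent gene on 1 side, whose annotated span overlaps that of AT5G24240, had 3.94, 4.33 and 4.34 in apum23, against 3.86, 4.21 and 4.15 in wild type (log2 fold change 0.13, limma adjusted p = 0.960). AT5G24260, the nearest measured gene on the other side, had 6.76, 6.97 and 7.21 in apum23, against 6.64, 7.18 and 7.31 in wild type (log2 fold change -0.06, limma adjusted p = 0.993). In both the groups overlapped on the deposited values. After quantile normalization AT5G24260 had 6.85, 6.97 and 6.93 in apum23, against 7.05, 7.17 and 7.11 in wild type, so its groups no longer overlapped, and its log2 fold change of -0.19 did not pass the test (limma adjusted p = 0.205). All 6 neighbours of AT5G24240 lay between -0.06 and 0.20 on the deposited values. By limma 0 of them were called there or after quantile normalization (0 also at an unadjusted p under 0.05 on either scale). The shares of all probe sets called were 6.69% and 19.7%, so with 6 genes nothing is read from this count. AT5G24240 was listed for its rise, so its contrast with its neighbours follows from that choice.

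Over all 4 kinases 2 of 24 neighbours were called, which is 8.33%, against 6.69% of all probe sets. Both lie on the same side of AT1G64460, and they moved in opposite directions. AT1G64490 rose, with 6.02, 6.05 and 6.31 in apum23, against 4.54, 4.98 and 5.29 in wild type (log2 fold change 1.19, or 2.28-fold, limma adjusted p = 1.09e-05). The next measured gene, AT1G64500, fell, with 5.57, 5.72 and 6.06 in apum23, against 6.30, 6.55 and 6.88 in wild type (log2 fold change -0.79, limma adjusted p = 0.0102). For both genes the groups did not overlap. AT1G64500 was not called without apum23 replicate 1 (-0.69), without apum23 replicate 2 (-0.76), without wild-type replicate 2 (-0.81) or without wild-type replicate 3 (-0.64), whereas AT1G64490 was called with each array left out. After quantile normalization both were called, at 1.02 and -0.95 (limma adjusted p = 5.59e-05 and 7.58e-05). AT1G64460 itself, beside them, was at -0.10 as given above. On that scale AT1G13650, next to AT1G13640, was also called, at -0.45 (limma adjusted p = 0.0208), a gene named after its values were seen. Its deposited values were 9.02, 9.42 and 9.37 in apum23, against 9.22, 9.93 and 9.90 in wild type. It was also called without wild-type replicate 1, at -0.64 on the deposited values and -0.53 after quantile normalization, and with arrays centred on their medians, at -0.58. It was not called with the replicate block, the filter on dim probe sets or the intensity trend (limma adjusted p = 0.0917, 0.369 and 0.506). Nor was it called on the deposited values when any array other than wild-type replicate 1 was left out.

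**Figure D4:**
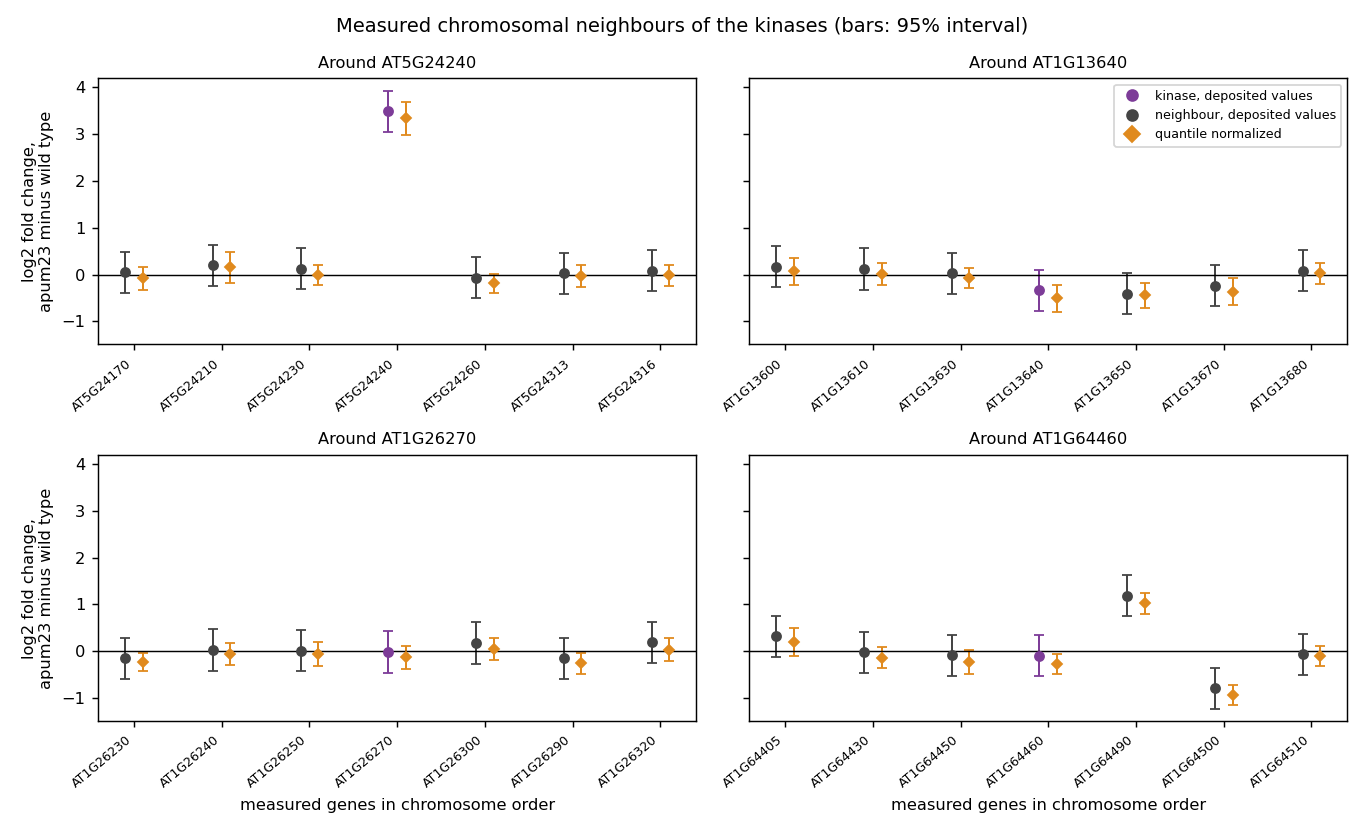
Log2 fold change, apum23 minus wild type (y axis, bars are 95% intervals), of each measured kinase (purple) and its measured neighbours (grey) in chromosome order (x axis) on deposited values, with the quantile-normalized value of each gene in orange. AT5G24240, which was listed for its rise, lies at 3.49 and its neighbours at -0.06 to 0.20. Beside AT1G64460 the genes AT1G64490 (1.19) and AT1G64500 (-0.79) lie on opposite sides of 0.

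The genes whose signal followed AT5G24240 most closely across the 6 arrays were ranked by Pearson's r of the deposited log2 intensities over 13285 other genes. The arrays fall into 2 genotypes, so any gene with a large rise scores high, and 71 genes reached 0.95. The 5 highest were AT3G05170 (r = 0.997), AT5G58610 (0.995), AT3G45730 (0.995), AT2G03130 (0.995) and AT3G55920 (0.993), and these are descriptions over 6 arrays without a test. AT3G05170 had 4.90, 4.80 and 5.19 in apum23, against 3.06, 3.33 and 2.86 in wild type, a smaller rise of 1.88 with the same order of arrays within each genotype as AT5G24240. AT5G58610 had 5.83, 5.61 and 5.995 in apum23, against 3.79, 4.23 and 3.77 in wild type, also a rise of 1.88 in this order of arrays. These 2 genes were also the 2 closest after quantile normalization, whereas the other 3 ranked 18, 20 and 32 there, where 463 genes reached 0.95. AT3G55920, with the largest rise of the 5 at 4.11, had 7.02, 6.88 and 7.19 in apum23, against 2.85, 3.00 and 2.89 in wild type.

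**Figure D5:**
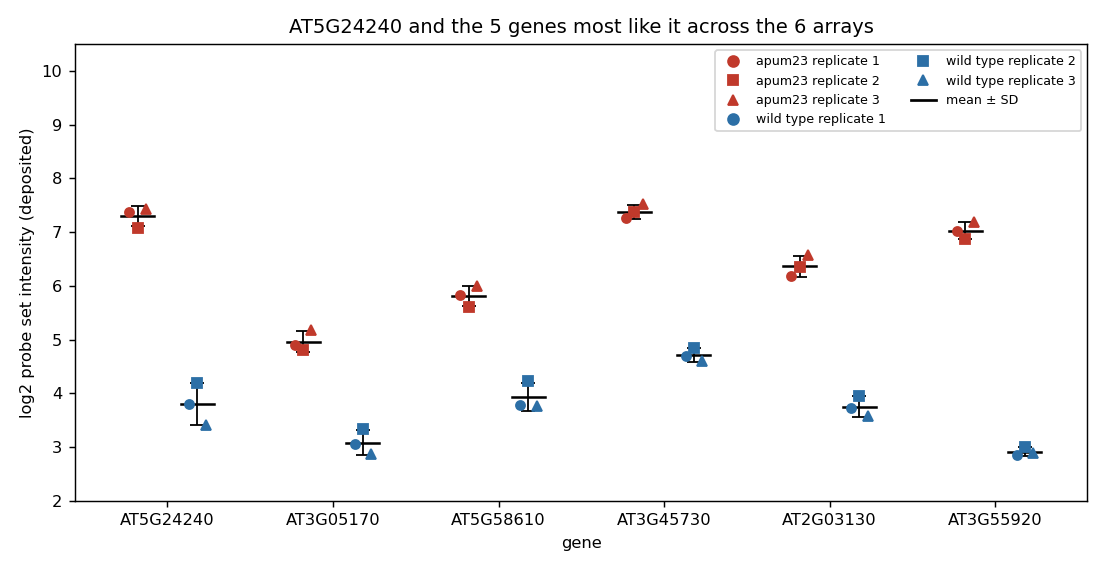
Deposited log2 probe set intensity (y axis) of AT5G24240 and the 5 genes most like it by Pearson's r over the 6 arrays (x axis), with apum23 in red, wild type in blue, single arrays as points and the mean ± SD of 3 as bars. All 6 genes are higher on every apum23 array than on any wild-type array, and their group means differ by 1.88 to 4.11 on the log2 scale.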

How the data were processed

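ATH1 arrays of 3 apum23 and 3 wild-type samples were used. The authors deposited log2 intensities, 1 per probe set and array. RMA and limma are the tools named in the submitters' processing notes, without versions. Array medians differ, so the arrays were not brought to 1 distribution. How many plants made up a sample is unknown here, and p-values measure the spread between these samples only.

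Of 22810 probe sets, 64 controls were left out. The probe table pairs 13513 of the other 22746 with 1 gene and 503 with several genes, which leaves 8730 unnamed. RefSeq (TAIR10.1) matched 13436 of the 1-gene probe sets, for 13286 genes, and the brightest probe set stood for a gene. The genotype effect was fitted in limma 3.58.1 (R 4.3.3) with lmFit and eBayes and no block. Two-sided p-values were adjusted by Benjamini-Hochberg over all 22746, and an adjusted p below 0.05 counted as a call. In this fit the prior degrees of freedom were infinite, so every probe set had the standard error 0.22 and the smallest called absolute log2 fold change was 0.66. Quantile normalization, with a median standard error of 0.11, was the main alternative. The others were median centring, the replicate block, a filter on the dimmest 40%, an intensity trend, each array left out, quantile normalization without wild-type replicate 1, and apum23 replicate 1 set alone against wild type. The alternative of averaging probe sets did not apply, since each kinase has 1. Planned promoter motifs were not searched. The code of the fit was run on simulated data with 1 offset per array and variances that differed between probe sets. Offsets that vary with intensity were not simulated, so that run checks the code and not how well the fit suits these arrays.

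The kinases and lists were chosen with earlier results of these data known. Named genes were all kinases, called pathway genes or the largest difference of a pathway list without a call, the measured partner genes, called neighbours, the nearest neighbours of AT5G24240 and its 5 most alike genes. The other pathway genes, PRK, RCA and AT1G13650 were named outside this rule, after their values were seen. The within-array differences and the second design of RNA quality controls were also added after seeing the data. The number of arrays limits the precision. Same-numbered arrays correlated in their deviations from the group means at -0.29, 0.11 and 0.16, so the numbers were not taken to pair samples.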

Additional observations from a re-analysis of the deposited data

How the results depend on the processing

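AT5G24240 stayed higher in apum23 in every setting run, at 3.30 to 3.69 with each array left out, a direction that the gap between its groups fixes when arrays are left out. Against 1 called kinase on the deposited values there were 2 after quantile normalization, which added AT1G13640 (-0.51). Every other setting with 2 or more apum23 arrays gave 1. AT5G24240 was called in each of them, and it was put on the list for its rise, so these counts are no support for that rise. Called pathway genes numbered 0 on the deposited values, 1 after quantile normalization (AT1G60890, 0.36), 1 with the replicate block (AT1G60890, limma adjusted p = 0.0465) and 1 after quantile normalization without wild-type replicate 1 (VTC4). Called partner genes, of 2 measured, numbered 0 in every setting with 2 or more apum23 arrays, and nothing is read from so few genes. Called neighbours numbered 2, with 1 to 3 when each array was left out, 1 with an intensity trend and 0 with apum23 replicate 1 alone against wild type, where the lone array is assumed to vary like wild type. AT1G64500 was the neighbour lost with the trend (limma adjusted p = 0.061), and AT1G64490 was lost only with apum23 replicate 1 alone (1.08, limma adjusted p = 0.106). Calls over all probe sets numbered 1522, against 4481 after quantile normalization, 2997 with median centring, 2604 with the replicate block, 3717 after quantile normalization without wild-type replicate 1, 253 with apum23 replicate 1 alone against wild type and 852 to 1842 with each array left out. Leaving out wild-type replicate 2 gave 861, leaving out apum23 replicate 1 gave 880, apum23 replicate 2 gave 898 and apum23 replicate 3 gave 852. The replicate block changed no call among the kinases or their neighbours, and the best correlate of an array had its number for 2 of 6 arrays. The cause was not tested for any of these changes. Probe sets near background, as AT5G24240 in wild type, limit how well a fold can be sized.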
